A study of Mus musculus with 13 samples.

Results

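Enteroendocrine cells are the hormone-secreting cells of the gut lining, and they arise in crypts from progenitors that escape Notch signalling and switch on Atoh1. A short pulse of Neurog3 commits a progenitor to the enteroendocrine fate, and Neurod1, Insm1, Pax4, Pax6, Isl1, Nkx2-2 and Fev follow as the cell matures and chooses its hormone. Chga encodes chromogranin A, a granin that packs hormones into dense-core granules, and it is the usual marker of the finished cell. These 8 transcription factors and Chga, 9 genes in all, were taken by symbol from tables of 24054 genes, and their counts were scaled to library size as CPM across all 6 groups of the study. All 9 were in the tables and all 9 passed the filter on low counts in every main fit.

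The small intestine of adult mice gave the 13 RNA libraries of the study, which asked what loss of Apc does in different cells and settings. Apc is part of the complex that destroys beta-catenin, so cells without it have Wnt signalling switched on. Sec-Cre organoids (2 libraries) carried Atoh1CreERT2;Apcfl/fl;Rosa26tdTomato, with Cre driven from Atoh1 in the secretory lineage, ISC-Cre organoids (2 libraries) carried Lgr5eGFP-CreERT2;Apcfl/fl;Rosa26tdTomato, with Cre driven from Lgr5 in intestinal stem cells (ISCs), and the third organoid group was labelled WT (2 libraries). Organoids, cultures of intestinal epithelium, were collected whole after plating of ileal crypts, with a labelled time point of 10 dpi that the sample labels and the design text count from different starts. Sorted ISCs were the other material. Sec-Cre ileal ISCs (2 libraries, 21 dpi) carried Atoh1CreERT2;Apcfl/fl;Lgr5DTR-GFP;Rosa26tdTomato. ISC-Cre duodenal ISCs (3 libraries, 14 dpi) carried Lgr5eGFP-CreERT2;Apcfl/fl;Rosa26tdTomato. WT ileal ISCs (2 libraries, 21 dpi) carried Apcfl/fl;Lgr5DTR-GFP;Rosa26tdTomato, so they had the floxed Apc allele and no Cre. Every mouse, WT included, received 2 doses of 1 mg tamoxifen. The labels do not say whether libraries of 1 group are from different mice or cultures. The p-values thus reflect library-to-library spread, part of which may be technical.

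Library totals ran from 11524335 to 45516228 gene counts. Both extremes were Sec-Cre ileal ISCs. Their replicate 1 stood apart: a panel of 7 Paneth cell genes took 24.3% of its counts, against 0.824% in replicate 2 and 1.83% to 2.13% in WT ileal ISCs, and its scaling factor by the trimmed mean of M-values (TMM) was 0.344. Its CPM values therefore depend on the scaling, and its Chga level was 67.5 CPM with the TMM factor and 23.3 CPM on its total alone. The 8 crypt-base stem cell markers summed to 1320 to 2200 CPM in Sec-Cre ileal ISCs and to 2660 to 2880 CPM in ISC-Cre duodenal ISCs, against 5260 to 5620 CPM in WT ileal ISCs. By edgeR (adjusted p under 0.05), none of the 8 rose and 3 fell in Sec-Cre ileal ISCs relative to WT ileal ISCs. Their median log2 fold change was -0.955, and of all genes tested 9.62% were higher and 6.96% lower. In ISC-Cre duodenal ISCs 2 rose and 1 fell, with a median of 0.183, where 10.2% of all genes were higher and 8.84% lower. Apc itself was read in every library, at 137 to 237 CPM in organoids and 48.6 to 454 CPM in ISCs. These counts cover the whole gene, of which a floxed allele loses only a part, so they do not check the labels. Whether Wnt signalling was switched on in each Apc-null group was not tested.

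The 9 genes lie on different stretches of the genome (GRCm38, from GENCODE). Neurog3 is at chr10:62133090-62134763 (+), Neurod1 at chr2:79452521-79456751 (-), Insm1 at chr2:146221921-146225020 (+) and Pax4 at chr6:28442334-28449353 (-). Pax6 is at chr2:105668900-105697364 (+), Isl1 at chr13:116298281-116309689 (-), Nkx2-2 at chr2:147177546-147194243 (-), Fev at chr1:74881509-74885419 (-) and Chga at chr12:102554969-102565028 (+). All are protein-coding. Exons of Neurod1 overlap those of Cerkl and Gm26755 by 355 bases, exons of Nkx2-2 overlap the antisense gene Nkx2-2os by 278 bases and those of Neurog3 overlap Fam241b by 273 bases, so the counts of these 3 genes are less certain. Neurog3, Neurod1 and Atoh1 proteins belong to the basic helix-loop-helix class, which binds the E-box, CANNTG, where N is any base. Promoters from the RefSeq table (GRCm38.p6) matched 7 of the 9 genes, and the missing entries are Insm1 and Pax4. Below are the 250 bases before the start site for Chga and Fev, which fell in both organoid comparisons, and for Neurog3 and Isl1, which passed in neither. Each is written 5′ to 3′ on the gene's own strand, with every CANNTG in capitals.
Chga: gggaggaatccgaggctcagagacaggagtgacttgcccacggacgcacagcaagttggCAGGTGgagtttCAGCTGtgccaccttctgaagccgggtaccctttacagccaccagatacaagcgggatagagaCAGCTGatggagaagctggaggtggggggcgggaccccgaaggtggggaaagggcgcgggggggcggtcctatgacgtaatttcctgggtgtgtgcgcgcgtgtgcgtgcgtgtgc
Fev: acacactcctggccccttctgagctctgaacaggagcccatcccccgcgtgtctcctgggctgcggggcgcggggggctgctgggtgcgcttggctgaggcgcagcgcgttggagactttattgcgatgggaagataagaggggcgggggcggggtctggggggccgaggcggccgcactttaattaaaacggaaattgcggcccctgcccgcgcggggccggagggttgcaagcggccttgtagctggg
Neurog3: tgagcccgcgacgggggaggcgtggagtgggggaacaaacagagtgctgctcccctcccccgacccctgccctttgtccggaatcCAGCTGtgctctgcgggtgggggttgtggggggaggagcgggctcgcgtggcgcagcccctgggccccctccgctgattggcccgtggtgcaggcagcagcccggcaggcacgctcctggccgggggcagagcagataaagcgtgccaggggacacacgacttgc
Isl1: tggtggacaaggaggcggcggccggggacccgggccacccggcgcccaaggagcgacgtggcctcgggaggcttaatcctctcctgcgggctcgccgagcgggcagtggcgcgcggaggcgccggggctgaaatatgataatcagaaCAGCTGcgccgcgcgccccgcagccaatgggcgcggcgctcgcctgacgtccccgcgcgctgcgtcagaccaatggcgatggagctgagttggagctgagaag
Their positions are chr12:102554691-102554940 (+), chr1:74885409-74885658 (-), chr10:62132840-62133089 (+) and chr13:116309689-116309938 (-). Chga held 3 E-boxes, Neurog3 and Isl1 held 1 each, and none was found in these letters of Fev. A CANNTG, which reads the same on both strands, was in 66.2% of all 32851 promoter windows of this length. The Wnt effector motif CTTTGAT, searched on both strands, was in none of the windows of the 7 matched genes and in 3.21% of all windows.

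In Sec-Cre Apc-null organoids, 5 of the 9 genes were lower than in WT organoids and none was higher (edgeR quasi-likelihood test, Benjamini-Hochberg adjusted p under 0.05 over 14208 genes). Of all genes tested, 16.3% were lower and 16.7% higher. The 5 were Chga and the factors Pax6, Nkx2-2, Fev and Neurod1. The median log2 fold change of the 9 genes was -2.28, against 0.0456 for all genes tested. In these bulk samples, fewer cells of a type and less RNA per cell cannot be told apart.

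Chga was at 1.60 and 2.91 CPM in Sec-Cre organoids, against 96.1 and 109 CPM in WT organoids. The groups lay far apart, and Chga was 45.7-fold lower (log2 fold change -5.52 ± 0.84 SE, edgeR adjusted p = 0.00261). Pax6, a factor that activates hormone genes such as that of proglucagon, was at 0.0819 and 0.459 CPM in Sec-Cre organoids, against 7.16 and 4.04 CPM in WT organoids. The Sec-Cre values rest on 2 and 12 reads, and the fall was 20.3-fold (-4.34 ± 0.93, edgeR adjusted p = 0.0109). It was -3.60 without Sec-Cre replicate 1 and -6.005 without Sec-Cre replicate 2. Fev, a late factor of the serotonin-making branch, was at 0.737 and 0.879 CPM in Sec-Cre organoids, against 3.51 and 6.72 CPM in WT organoids. It fell by 6.39-fold (-2.68 ± 0.55, edgeR adjusted p = 0.00915). Neurod1, a direct target of Neurog3, was at 1.56 and 2.48 CPM in Sec-Cre organoids, against 6.39 and 12.99 CPM in WT organoids. The groups did not overlap, and Neurod1 fell by 4.86-fold (-2.28 ± 0.50, edgeR adjusted p = 0.0117). Nkx2-2, which acts early in the lineage and shapes hormone choice, was at 0.696 and 0.42 CPM in Sec-Cre organoids, against 2.53 and 5.57 CPM in WT organoids. It fell by 7.33-fold (-2.88 ± 0.65, edgeR adjusted p = 0.0136).

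The other 4 genes did not pass. Neurog3, which starts the programme, was at 2.42 and 6.19 CPM in Sec-Cre organoids, against 6.95 and 11.2 CPM in WT organoids. The groups lay just apart (log2 fold change -1.10 ± 0.50, edgeR adjusted p = 0.134). Insm1, a zinc-finger factor needed for endocrine differentiation, was at 2.42 and 5.70 CPM in Sec-Cre organoids, against 7.93 and 18.7 CPM in WT organoids (-1.74 ± 0.60, edgeR adjusted p = 0.0594). Insm1 passed in 5 of 16 alternatives, among them DESeq2 (adjusted p = 0.0181) and the fits without Sec-Cre replicate 2 (0.0477) or WT replicate 1 (0.0286). Isl1, a LIM-homeodomain factor of several hormone lineages, was at 4.5 and 8.75 CPM in Sec-Cre organoids, against 2.25 and 5.88 CPM in WT organoids. The groups overlapped (0.67 ± 0.56, edgeR adjusted p = 0.396). Pax4, which favours the serotonin and somatostatin branches, was at 0.287 and 0.688 CPM in Sec-Cre organoids, against 0.561 and 0.834 CPM in WT organoids, and these groups overlapped as well (-0.54 ± 0.82, edgeR adjusted p = 0.652). Without Sec-Cre replicate 1, Chga alone of the 5 remained below the threshold, with adjusted p = 0.0759 for Neurod1, 0.0503 for Pax6, 0.0591 for Nkx2-2 and 0.072 for Fev. Without Sec-Cre replicate 2, Nkx2-2 (0.103) and Fev (0.0554) were lost, and without WT replicate 2, Nkx2-2 (0.0632). That last removal also moved the log2 fold changes of Nkx2-2 to -2.18 and of Neurod1 to -1.67.

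**Figure D1:**
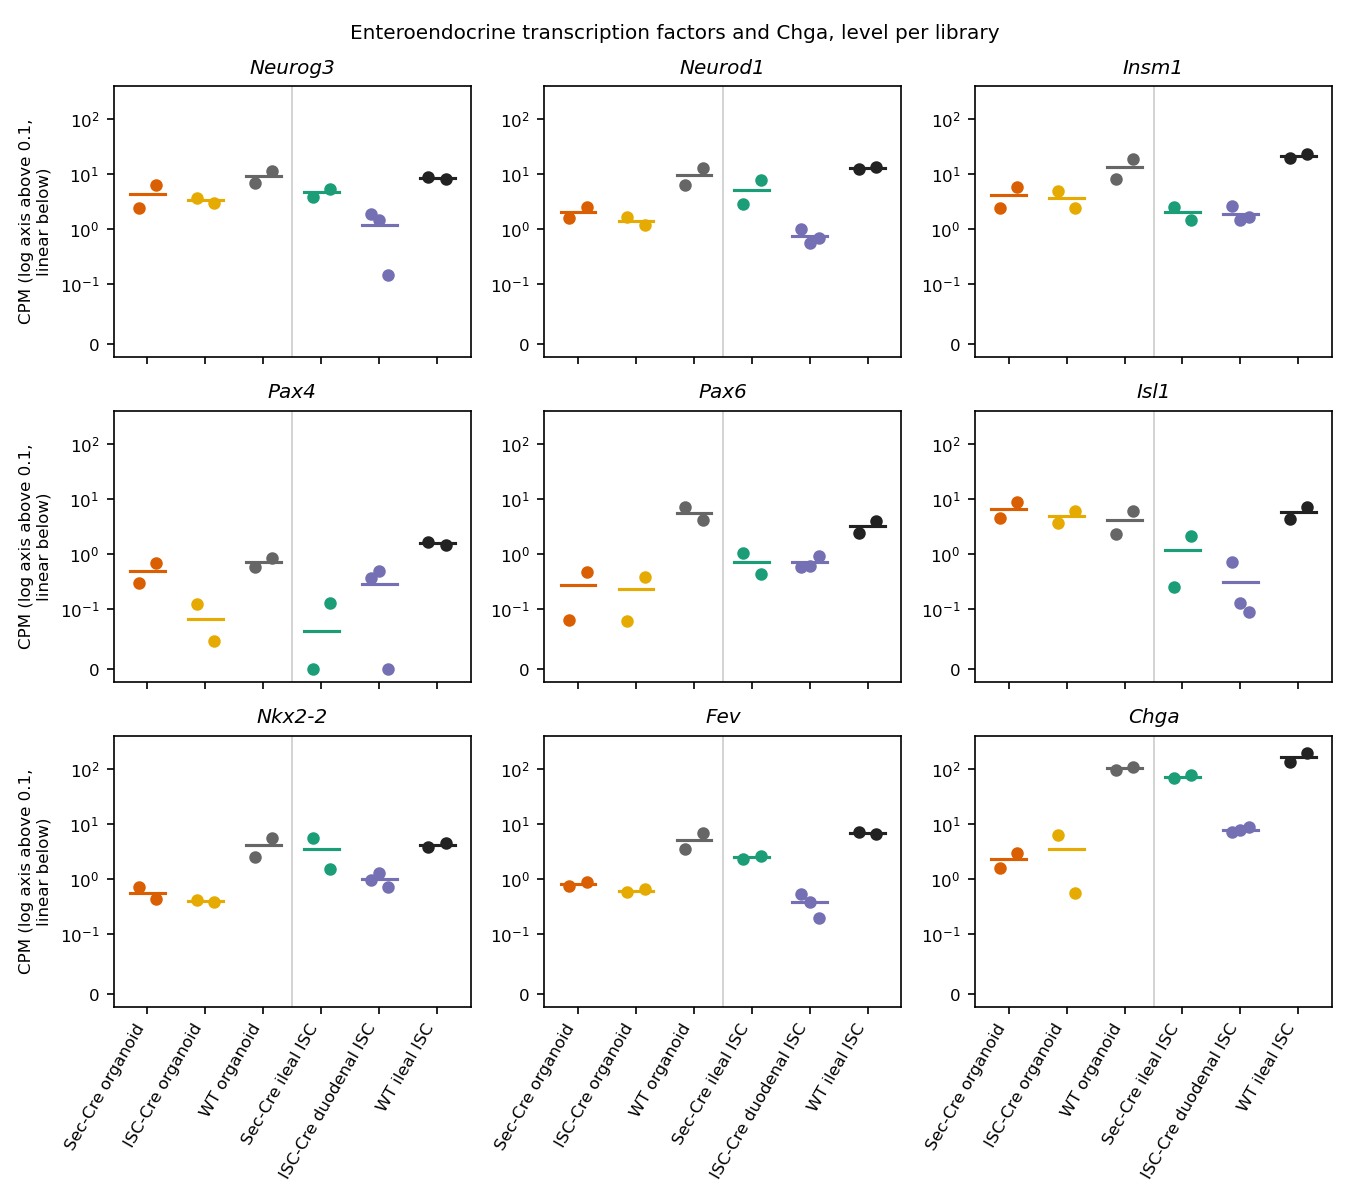
CPM on TMM library sizes (log axis above 0.1, linear below) of the 9 genes in each of the 13 libraries (points), with the group mean as a bar; organoids stand left of the grey line and sorted ISCs right of it. Chga in both Apc-null organoid groups sits at 0.555 to 6.28 CPM, below WT organoids at 96.1 and 109 CPM, while Isl1 overlaps among all organoid groups.

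ISC-Cre Apc-null organoids gave a like list: 7 of the 9 genes were lower than in WT organoids and none was higher, where 18.5% of all genes tested were lower and 19.3% higher. Both comparisons share the WT libraries, so they are not independent of each other. The median log2 fold change of the 9 genes was -3, against 0.0261 for all genes. Chga was at 6.28 and 0.555 CPM in ISC-Cre organoids, against 96.1 and 109 CPM in WT organoids. Both ISC-Cre libraries lay far below WT (29.9-fold, log2 fold change -4.90 ± 0.81 SE, edgeR adjusted p = 0.0031), but the size of the fall rests on which of them is used: it was -7.53 without ISC-Cre replicate 1, -4.05 without ISC-Cre replicate 2 and -5.70 with limma voom.

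Among the factors, Neurod1 was at 1.64 and 1.16 CPM in ISC-Cre organoids, against 6.39 and 12.99 CPM in WT organoids (-2.81 ± 0.51, edgeR adjusted p = 0.00476). Fev was at 0.56 and 0.648 CPM in ISC-Cre organoids, against 3.51 and 6.72 CPM in WT organoids (-3.10 ± 0.57, edgeR adjusted p = 0.00479). Both fell without overlap and passed in all 16 alternatives. Nkx2-2 was 10.6-fold lower (edgeR adjusted p = 0.00694) and Pax6 was 25.2-fold lower (edgeR adjusted p = 0.00802). Insm1 was at 4.84 and 2.36 CPM in ISC-Cre organoids, against 7.93 and 18.7 CPM in WT organoids (-1.91 ± 0.60, edgeR adjusted p = 0.0404). Pax4 had 3 reads and 1 read in the ISC-Cre libraries, or 0.12 and 0.0463 CPM, against 0.561 and 0.834 CPM in WT organoids (-2.998 ± 0.987, edgeR adjusted p = 0.0474). These last calls were unsteady: Pax4 was lost in 14 of 16 alternatives, among them the removal of any 1 of the 6 organoid libraries (adjusted p = 0.0691 to 0.22), and Insm1 in 5 of 16. Insm1 was lost when WT replicate 2 (0.184) or either ISC-Cre library (0.0785 for the first, 0.205 for the second) was left out. Leaving out ISC-Cre replicate 1 also took Pax6 (adjusted p = 0.062) and Nkx2-2 (0.055) above the threshold, and leaving out replicate 2 took Nkx2-2 there (0.0558). The log2 fold change of Pax6 was -3.91 without ISC-Cre replicate 1 and -6.05 without ISC-Cre replicate 2. Without WT replicate 2 it was -2.72 for Nkx2-2, -2.21 for Neurod1 and -1.16 for Insm1. Without ISC-Cre replicate 1 it was -2.52 for Insm1 and -3.79 for Pax4, and with the strand columns summed it was -2.81 for Nkx2-2. Neurog3 was at 3.68 and 2.96 CPM in ISC-Cre organoids, against 6.95 and 11.2 CPM in WT organoids. It lay just above the threshold (-1.48 ± 0.51, edgeR adjusted p = 0.0546), and passed in 6 of 16 alternatives, among them those without Sec-Cre replicate 1 (0.0298), Sec-Cre replicate 2 (0.0358) or WT replicate 1 (0.0436). Isl1 was at 3.6 and 6.02 CPM in ISC-Cre organoids, inside the range of WT organoids at its lower end and just above it at its upper end (0.20 ± 0.56, edgeR adjusted p = 0.81).

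Between the drivers of Apc loss no difference in these genes was detectable in organoids. None of the 9 passed between Sec-Cre and ISC-Cre organoids by edgeR or by DESeq2, where 0.0422% of all genes were lower and 0% higher by edgeR. Only Pax4 had an unadjusted p under 0.05 by edgeR (2.46 ± 0.99, edgeR adjusted p = 0.984), with 7 and 18 reads in Sec-Cre organoids against 3 and 1 in ISC-Cre organoids. Chga was at -0.61 ± 0.81 (edgeR adjusted p = 1), and its sign turned to 2.02 without ISC-Cre replicate 1. The SEs of 0.50 to 1.01 over the 9 genes show how large a difference could have been missed. In this comparison Pax4 had an adjusted p in 14 alternatives and Pax6 in 15, against 16 for the other genes.

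**Figure D2:**
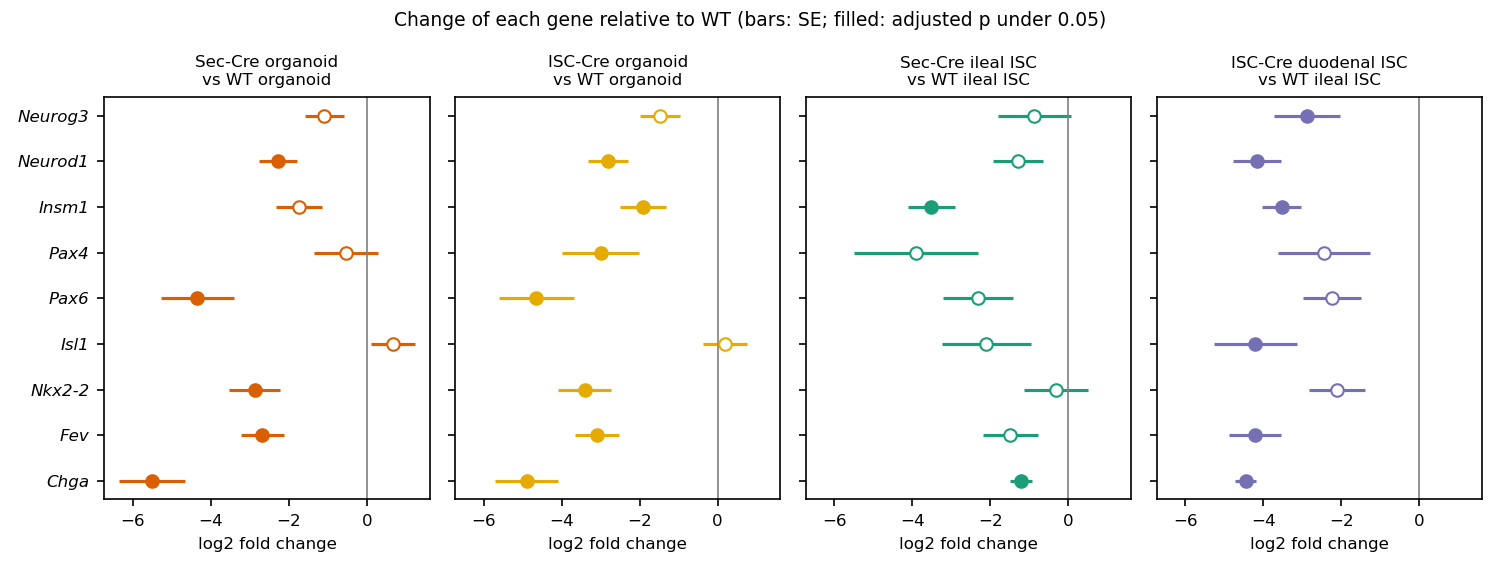
Log2 fold change relative to WT (points, with SE bars) of the 9 genes in 4 comparisons, the 2 organoid comparisons sharing the WT organoids and the 2 ISC comparisons sharing the WT ileal ISCs; filled points have an adjusted p under 0.05. Chga is filled in all 4 panels, at -5.52, -4.90, -1.22 and -4.45, and no gene is filled above 0.

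The balance within the set differed between the groups. Chga made up 11.2% and 10.2% of the summed CPM of the 9 genes in Sec-Cre organoids and 29.6% and 3.83% in ISC-Cre organoids, against 72.1% and 62.2% in WT organoids. Chga reads per Neurog3 read were 0.661 and 0.469 in Sec-Cre organoids and 1.71 and 0.188 in ISC-Cre organoids, against 13.8 and 9.70 in WT organoids. All 4 Apc-null organoid libraries lay below both WT ones on both measures. In sorted cells, Chga reads per Neurog3 read were 17.9 and 14.4 in Sec-Cre ileal ISCs and 3.87, 5.17 and 60.7 in ISC-Cre duodenal ISCs, against 15.6 and 24.5 in WT ileal ISCs. The value of 60.7 comes from the duodenal library with 3 Neurog3 reads. Divided by exon length, the mean of Neurog3 was the highest of the 9 in Sec-Cre and in ISC-Cre organoids. It was 2.57 ± 1.60 CPM per kb in Sec-Cre organoids and 1.98 ± 0.30 in ISC-Cre organoids (SD, n = 2 each). In ISC-Cre replicate 1, however, Chga (2.28 CPM per kb) lay above Neurog3 (2.20). Chga was the highest in the other 4 groups, at 26.3 ± 2.52 CPM per kb in Sec-Cre ileal ISCs, 2.82 ± 0.28 in ISC-Cre duodenal ISCs, 59.9 ± 14.7 in WT ileal ISCs and 37.1 ± 3.20 in WT organoids. By group mean, Pax6 was the lowest per kb in every group except Sec-Cre ileal ISCs, where Pax4 was lower. Single libraries differed. In WT organoid replicate 1, Pax4 (0.389 CPM per kb) lay below Pax6 (0.612). In duodenal replicates 2 and 3, Isl1 (0.0322 and 0.0239) lay below Pax6 (0.0518 and 0.0769). In Sec-Cre ileal replicate 2, Pax6 (0.0368) lay below Pax4 (0.0875). The exon length used for Pax6 was 11.694 kb, with the exons of all its transcripts joined.

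**Figure D3:**
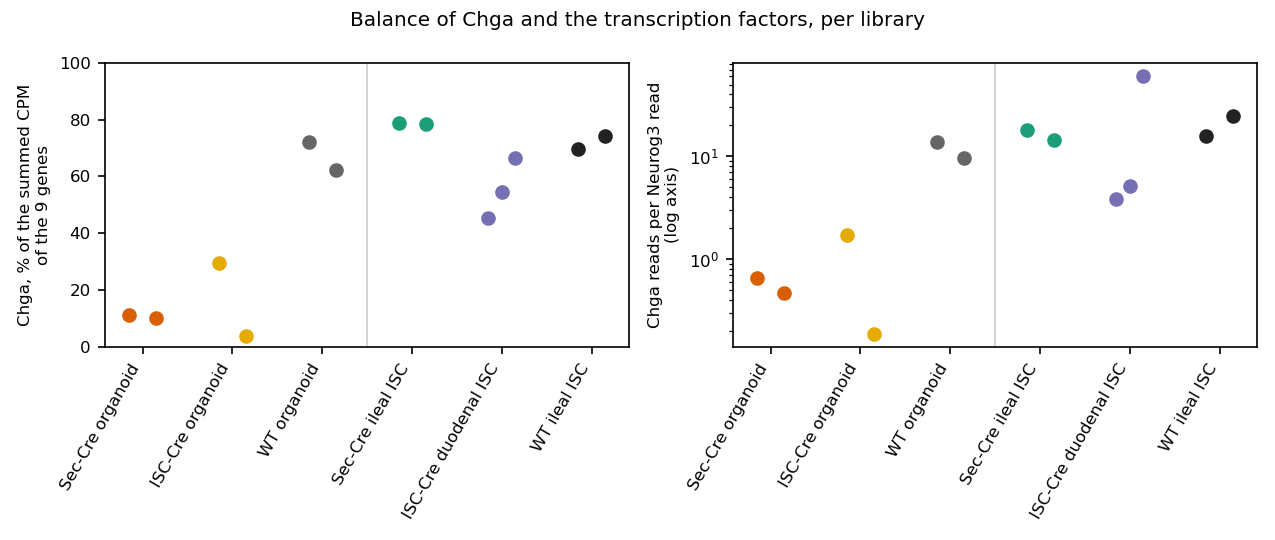
Per library (points), Chga as a percentage of the summed CPM of the 9 genes (left) and Chga reads per Neurog3 read on a log axis (right), for 3 organoid groups left of the grey line and 3 ISC groups right of it. The 4 Apc-null organoid libraries sit at 3.83% to 29.6%, below the WT organoids at 62.2% and 72.1%, and the Sec-Cre ileal ISCs at 78.8% and 78.5% sit above the WT ileal ISCs at 69.5% and 74.2%.

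In Sec-Cre ileal ISCs, Insm1 and Chga were lower than in WT ileal ISCs, and the other 7 genes did not pass (edgeR over 14577 genes, where 6.96% of all genes were lower and 9.62% higher). Insm1 was at 2.52 and 1.47 CPM in Sec-Cre ileal ISCs, against 19.7 and 22.7 CPM in WT ileal ISCs. This 11.4-fold fall (log2 fold change -3.51 ± 0.60 SE, edgeR adjusted p = 0.00796) rests on 10 and 58 reads in the Sec-Cre libraries. It was lost when WT replicate 1 (adjusted p = 0.055) or WT replicate 2 (0.0678) was left out, where a lone WT library is assumed to vary like the other groups. On library totals alone its log2 fold change was -4.35. Chga was at 67.5 and 77.4 CPM in Sec-Cre ileal ISCs, against 136 and 194 CPM in WT ileal ISCs. The groups did not overlap, and the fall was 2.32-fold (-1.22 ± 0.29, edgeR adjusted p = 0.0258). The Chga call was lost in 7 of 17 alternatives, with adjusted p = 0.0568 on library totals alone, where its log2 fold change was -1.94, 0.0608 with only the groups compared and 0.165 with all 13 libraries. It was also lost without Sec-Cre replicate 1 (0.0532), WT replicate 1 (0.0875), WT replicate 2 (0.214) or duodenal replicate 1 (0.0548).

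Neurod1 was at 2.77 and 7.59 CPM in Sec-Cre ileal ISCs, against 12.2 and 13.4 CPM in WT ileal ISCs (-1.28 ± 0.64, edgeR adjusted p = 0.198). Neurog3 was at 3.78 and 5.39 CPM in Sec-Cre ileal ISCs, against 8.73 and 7.90 CPM in WT ileal ISCs (-0.87 ± 0.93, edgeR adjusted p = 0.549). Fev was at 2.27 and 2.63 CPM in Sec-Cre ileal ISCs, against 7.08 and 6.57 CPM in WT ileal ISCs (-1.49 ± 0.71, edgeR adjusted p = 0.175). All 3 had lower values in both Sec-Cre libraries without passing the test. Pax4 had 0 and 5 reads in Sec-Cre ileal ISCs, against 27 and 28 in WT ileal ISCs (-3.90 ± 1.59, edgeR adjusted p = 0.124), and passed without duodenal replicate 3 (0.0454). Pax6 (-2.31 ± 0.91, edgeR adjusted p = 0.111) and Isl1 (-2.10 ± 1.14, edgeR adjusted p = 0.231) were also without overlap, and Nkx2-2 overlapped (-0.32 ± 0.81, edgeR adjusted p = 0.821). The median of the 9 genes was -1.49, against 0 for all genes tested. On library totals alone that median of all genes shifted to -0.713.

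Markers of other cells moved with this comparison. All 8 enterocyte markers rose, where 9.62% of all genes were higher. They summed to 21900 to 43800 CPM in Sec-Cre ileal ISCs, against 513 to 540 CPM in WT ileal ISCs. Their part in the results on the 9 genes was not tested. The Paneth panel ran from 9490 to 706000 CPM in Sec-Cre ileal ISCs, against 17300 to 20300 CPM in WT ileal ISCs, and 1 of its 7 tested genes rose. Without Sec-Cre replicate 1, which holds the upper value, Insm1 kept its call, and the fall of Chga was about as large (-1.14, against -1.22 with it) at an adjusted p of 0.0532.

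In ISC-Cre duodenal ISCs, 6 of the 9 genes were lower than in WT ileal ISCs and none was higher, where 8.84% of all genes were lower and 10.2% higher. The groups also differ in gut region, driver, time point, the enzyme that released the cells and strand-specific library, and these cannot be told apart from loss of Apc. Both ISC comparisons share the WT ileal libraries. Chga was at 7.10, 7.59 and 8.62 CPM in ISC-Cre duodenal ISCs, against 136 and 194 CPM in WT ileal ISCs. The 3 duodenal libraries lay close together, and the difference was 21.9-fold (-4.45 ± 0.28, edgeR adjusted p = 0.000204). Neurod1 was at 1.00, 0.54 and 0.663 CPM in ISC-Cre duodenal ISCs, against 12.2 and 13.4 CPM in WT ileal ISCs (-4.15 ± 0.62, edgeR adjusted p = 0.00283). Fev was at 0.533, 0.383 and 0.189 CPM in ISC-Cre duodenal ISCs, against 7.08 and 6.57 CPM in WT ileal ISCs (-4.22 ± 0.67, edgeR adjusted p = 0.00381). Insm1 was at 2.57, 1.47 and 1.61 CPM in ISC-Cre duodenal ISCs, against 19.7 and 22.7 CPM in WT ileal ISCs (-3.53 ± 0.49, edgeR adjusted p = 0.00228). These 4 genes passed in all 17 alternatives.

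Isl1 was at 0.7, 0.128 and 0.0947 CPM in ISC-Cre duodenal ISCs, against 4.34 and 7.03 CPM in WT ileal ISCs (-4.20 ± 1.07, edgeR adjusted p = 0.028). Neurog3 was at 1.83, 1.47 and 0.142 CPM in ISC-Cre duodenal ISCs, against 8.73 and 7.90 CPM in WT ileal ISCs (-2.88 ± 0.85, edgeR adjusted p = 0.0454). Their calls were lost in 5 of 17 alternatives for Isl1 and in 7 of 17 for Neurog3, each of them without either WT ileal library (0.0632 and 0.129 for Isl1, 0.14 and 0.15 for Neurog3), and Neurog3 on library totals alone (0.104). The log2 fold change of Isl1 was -5.63 without duodenal replicate 1. Isl1 was also lost without duodenal replicate 2 (0.102) or 3 (0.0769), and Neurog3 without duodenal replicate 1 (0.0826) or 2 (0.113). Pax6 (-2.23 ± 0.74, edgeR adjusted p = 0.0676), Nkx2-2 (-2.11 ± 0.73, edgeR adjusted p = 0.0756) and Pax4 (-2.44 ± 1.17, edgeR adjusted p = 0.18) did not pass, although their libraries did not overlap. Pax6 passed in 6 of 17 alternatives and Nkx2-2 in 7 of 17, both without Sec-Cre ileal replicate 1 (0.0388 for Pax6, 0.0295 for Nkx2-2) or replicate 2 (0.0364 and 0.0242). Pax4 passed in 1 of 17, limma voom with library weights (-2.11, adjusted p = 0.0132). Nkx2-2 also passed (-2.51, adjusted p = 0.0302) when the strand columns were summed, an alternative chosen after seeing the data. The median log2 fold change of the 9 genes was -3.53, against 0.074 for all genes tested.

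Set against Sec-Cre ileal ISCs, the other sorted Apc-null group, ISC-Cre duodenal ISCs had 3 lower genes and none higher, where 19.8% of all genes were lower and 21% higher. Gut region, driver, time point, the enzyme that released the cells and strand-specific library all differ between these groups. They cannot be told apart. Chga was at 7.10, 7.59 and 8.62 CPM in ISC-Cre duodenal ISCs, against 67.5 and 77.4 CPM in Sec-Cre ileal ISCs (-3.24 ± 0.27, edgeR adjusted p = 0.000164). Neurod1 (-2.87 ± 0.60, edgeR adjusted p = 0.00641) and Fev (-2.72 ± 0.66, edgeR adjusted p = 0.012) were the others. With TMM, Insm1 was alike in level, at 1.88 ± 0.60 CPM in duodenal ISCs (SD, n = 3) and 1.99 ± 0.74 CPM in Sec-Cre ileal ISCs (SD, n = 2), with overlapping libraries (-0.02 ± 0.53, edgeR adjusted p = 0.982). On library totals alone the Insm1 means were 2.12 CPM in duodenal and 1.07 CPM in Sec-Cre ileal ISCs, and its log2 fold change was 0.96. Nkx2-2 did not pass, but did so in 4 of 17 alternatives, among them that without Sec-Cre ileal replicate 2 (-2.51, adjusted p = 0.0215). Without that library the log2 fold change of Neurod1 was -1.91. On library totals alone it was -2.40 for Chga, the calls of Neurod1 (-2.21, adjusted p = 0.056) and Fev (-1.87, 0.111) were lost, and the median of all genes shifted to 0.978, against 0.117 with TMM. With TMM, 51.4% of all calls were higher, and on library totals alone 81%.

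WT organoids and WT ileal ISCs, the 2 groups with working Apc, were set side by side across materials. Culture, cell mix and time point differ between them and cannot be told apart. None of the 9 genes passed by edgeR or by DESeq2 and none had an unadjusted p under 0.05 by edgeR, where 3.87% of all genes were called in either direction. Chga was at 96.1 and 109 CPM in WT organoids, against 136 and 194 CPM in WT ileal ISCs (-0.68 ± 0.62, edgeR adjusted p = 0.66). Those libraries did not overlap. Insm1, Pax4 and Pax6 were also without overlap, Pax6 alone being higher in organoids, and the other 5 overlapped.

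The fall of Chga in Sec-Cre Apc-null samples relative to WT was larger in organoids than in ileal ISCs. Organoids and sorted ISCs also differ in culture, cell mix and time point, and the Sec-Cre ileal ISCs carried Lgr5DTR-GFP. These cannot be told apart. The difference between the log2 fold changes was -4.26 ± 0.93 SE (organoid minus ileal ISC, interaction in a fit of all 13 libraries, edgeR adjusted p = 0.00573), and it passed in all 22 alternatives, at -3.41 on library totals alone. It was the only one of the 9 genes with such a call, where 13% of all genes tested had a lower and 13.4% a higher interaction call. The interaction was -2.49 ± 1.05 for Nkx2-2 (edgeR adjusted p = 0.101), 1.85 ± 0.85 for Insm1 (edgeR adjusted p = 0.13) and 2.76 ± 1.31 for Isl1 (edgeR adjusted p = 0.14). On library totals alone Insm1 passed, at 2.77 (adjusted p = 0.0457), and without Sec-Cre ileal replicate 2 Nkx2-2 passed, at -3.30 (adjusted p = 0.0212).

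Across the 6 groups, Chga had the widest order. Its mean ran from 165 ± 40.5 CPM in WT ileal ISCs through 102 ± 8.83 in WT organoids, 72.5 ± 6.95 in Sec-Cre ileal ISCs, 7.77 ± 0.78 in ISC-Cre duodenal ISCs and 3.42 ± 4.05 in ISC-Cre organoids to 2.25 ± 0.93 in Sec-Cre organoids (SD, n = 3 for duodenal ISCs and 2 elsewhere). Only the last 2 neighbours overlapped. Neurog3 had a flatter order, and its libraries overlapped between WT organoids and WT ileal ISCs and between Sec-Cre organoids and each of Sec-Cre ileal ISCs and ISC-Cre organoids. Isl1 was ordered differently from Chga: its mean was highest in Sec-Cre organoids at 6.63 ± 3.01 CPM, and each of the next 3 groups, WT ileal ISCs, ISC-Cre organoids and WT organoids, overlapped the one before it.

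The genes whose profile over the 13 libraries was most like that of each of the 9 were found by the root mean square difference of centred log2 CPM, over 14165 genes. Neurod1 and Fev were each other's nearest gene, at 0.372, where their own spreads were 1.54 and 1.55. For Chga the nearest were Tph1, the enzyme that starts serotonin synthesis, at 0.74, Tac1, which encodes substance P, at 0.744, and Chgb, a second chromogranin, at 0.811, with its own spread at 2.62. Neurog3 was nearest to Wdr16 at 0.332, Insm1 to Olfr558 at 0.541, Nkx2-2 to Sema4g at 0.5, Pax6 to Aqp4 at 0.655, Pax4 to Krt78 at 0.678 and Isl1 to Abca12 at 0.745. The libraries share depth and cell composition, so these values are descriptions.

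Genes that act after the 9 also fell in Apc-null organoids. Of 16 tested gut hormone and serotonin genes, 12 fell and none rose in Sec-Cre organoids relative to WT, with a median log2 fold change of -6.02, or -4.21 with the 3 genes without a read in Sec-Cre organoids set at their bound. In ISC-Cre organoids 11 of 16 fell and none rose, with a median of -4.48, also with the 1 such gene at its bound. Of all genes tested, 16.3% were lower in Sec-Cre organoids and 18.5% in ISC-Cre organoids. Gcg, which encodes proglucagon, averaged 0.479 ± 0.62 CPM in Sec-Cre organoids, 6.35 ± 8.52 CPM in ISC-Cre organoids, against 244 ± 40.1 CPM in WT organoids (SD, n = 2 each). Sst, which encodes somatostatin, had no read in Sec-Cre organoids, against 36.5 ± 8.37 CPM in WT organoids, and was at least 616-fold lower by a floor of 3 counts over the group. Pyy, which encodes peptide YY, averaged 0.0983 ± 0.0232 CPM in Sec-Cre organoids, against 19.7 ± 7.29 CPM in WT organoids (SD, n = 2 each, edgeR adjusted p = 0.000149). Tph1 averaged 0.197 ± 0.0464 CPM in Sec-Cre organoids, against 10.6 ± 0.403 CPM in WT organoids (SD, n = 2 each, edgeR adjusted p = 0.000492).

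Of 23 tested granin, prohormone-processing and vesicle genes, 15 fell and 2 rose in Sec-Cre organoids, and 13 fell and 2 rose in ISC-Cre organoids. The shares over all genes were 16.3% lower and 16.7% higher in Sec-Cre organoids, and 18.5% and 19.3% in ISC-Cre organoids. Chgb averaged 11.2 ± 4.85 CPM in Sec-Cre organoids, against 284 ± 29.4 CPM in WT organoids (SD, n = 2 each, edgeR adjusted p = 0.00145). Pcsk1, a convertase that cuts prohormones, averaged 2.92 ± 0.393 CPM in Sec-Cre organoids, against 37.0 ± 16.1 CPM in WT organoids (SD, n = 2 each, edgeR adjusted p = 0.000516). The 2 that rose were Pam, an enzyme that amidates peptides and is also made outside endocrine cells, and Pcsk2, another convertase. Pam averaged 87.2 ± 14.2 CPM in Sec-Cre organoids, against 25.7 ± 2.33 CPM in WT organoids (SD, n = 2 each, edgeR adjusted p = 0.000309). Pcsk2 had no read in WT organoids and was at least 9.03-fold higher in Sec-Cre organoids.

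Of 18 tested other transcription factors tied to the lineage, 4 rose and 4 fell in Sec-Cre organoids, where 16.7% of all genes were higher and 16.3% lower. In ISC-Cre organoids 4 rose and 5 fell, where 19.3% of all genes were higher and 18.5% lower, so these counts lie near the background. Prox1, a homeodomain factor, averaged 237 ± 62.5 CPM in Sec-Cre organoids and 355 ± 43.8 CPM in ISC-Cre organoids, against 5.32 ± 1.81 CPM in WT organoids (SD, n = 2 each). Sox4 and Foxa1, which are active in other epithelial cells too, also rose, and so did Egr3. Rfx6, a factor of maturing endocrine cells, averaged 1.42 ± 0.798 CPM in Sec-Cre organoids, against 6.96 ± 1.21 CPM in WT organoids (SD, n = 2 each, edgeR adjusted p = 0.0134). Lmx1a, Etv1 and St18 also fell. Of 12 secretory fate and Notch genes, 3 rose and 4 fell in each of both organoid comparisons. Atoh1, which opens the secretory fate, averaged 10.9 ± 0.311 CPM in Sec-Cre organoids, against 40.7 ± 1.54 CPM in WT organoids (SD, n = 2 each, edgeR adjusted p = 0.000422). Hes6, an antagonist of Hes1, averaged 227 ± 21.2 CPM in Sec-Cre organoids, against 89.0 ± 5.52 CPM in WT organoids (SD, n = 2 each, edgeR adjusted p = 0.000339).

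**Figure D4:**
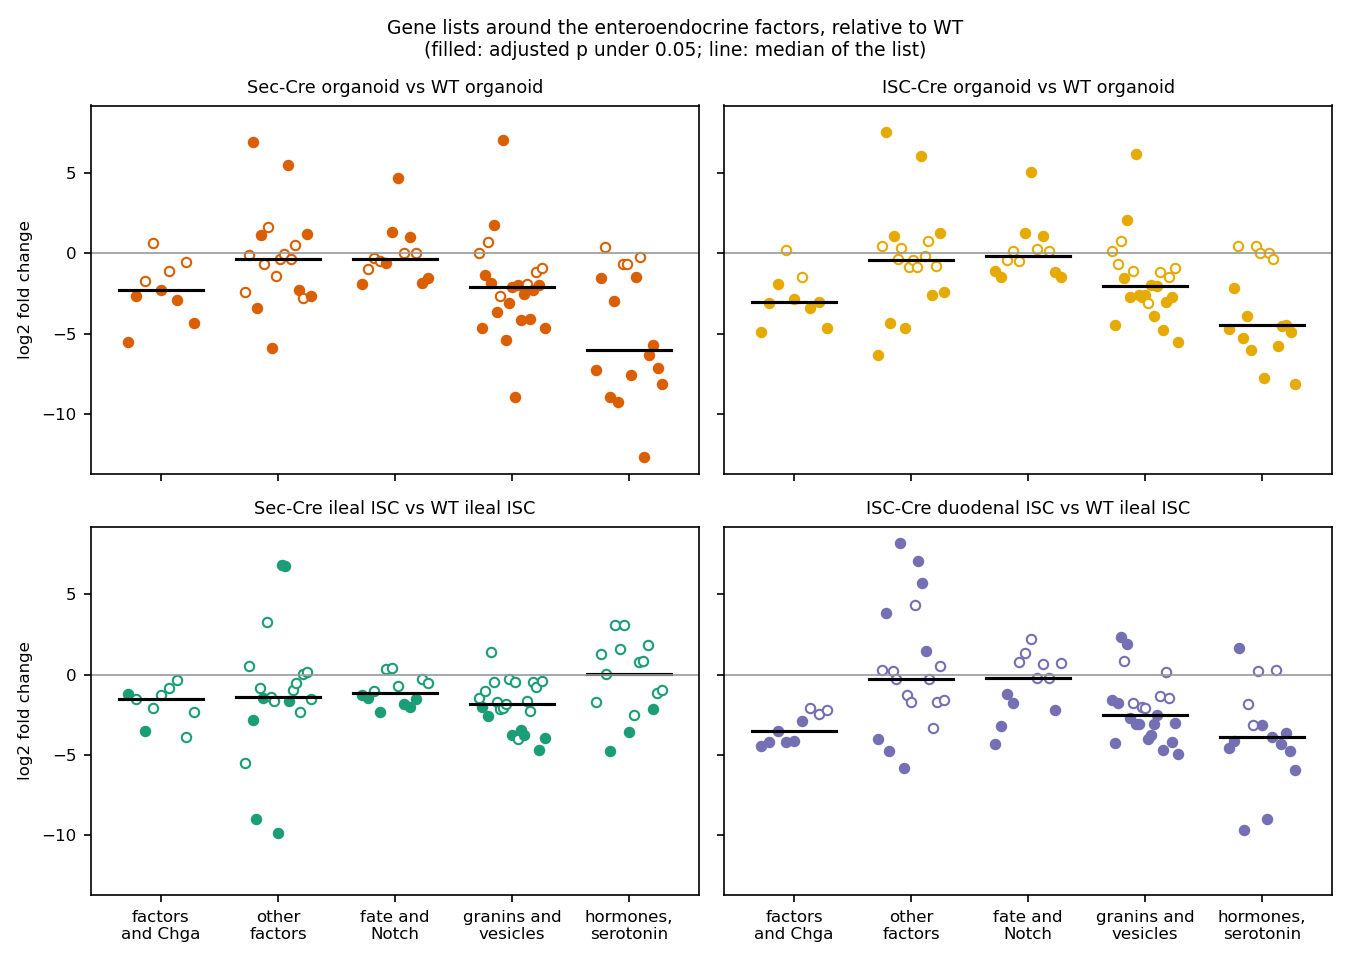
Log2 fold change relative to WT of each tested gene (points) in 5 lists, for 4 comparisons; filled points have an adjusted p under 0.05 and black lines are list medians, and fitted values of genes with no read in 1 group depend on a prior count. The hormone and serotonin list has its median at -6.02 in Sec-Cre (-4.21 with genes without a read at their bound) and -4.48 in ISC-Cre organoids, at 0.059 in Sec-Cre ileal ISCs and at -3.92 in ISC-Cre duodenal ISCs.

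In sorted ISCs the same lists were read against the same WT ileal libraries. In Sec-Cre ileal ISCs, 3 of 15 tested hormone and serotonin genes fell (Gcg, Tac1 and Nts) and none rose, and the list median was 0.059. Of all genes tested in this comparison, 6.96% were lower and 9.62% higher. Gcg averaged 4.92 ± 5.16 CPM in Sec-Cre ileal ISCs and 114 ± 18.3 CPM in WT ileal ISCs (SD, n = 2 each, edgeR adjusted p = 0.0165). Of 23 granin and vesicle genes 7 fell, among them Chgb and Syt13, and none rose. Of 19 other factors 2 rose and 5 fell, the risers being Onecut2 and Nkx6-3. Of 12 fate and Notch genes 6 fell, among them Atoh1, Dll1 and Notch1, and none rose. In ISC-Cre duodenal ISCs 10 of 15 hormone and serotonin genes fell and 1 rose, Fabp5, a fatty-acid binding protein and not a hormone. Here 8.84% of all genes were lower and 10.2% higher. In the same cells 14 of 23 granin and vesicle genes fell and 2 rose (Pam and Cplx2), 3 of 19 other factors fell and 5 rose, and 5 of 12 fate and Notch genes fell and none rose. Sct, which encodes secretin, averaged 2.15 ± 0.776 CPM in ISC-Cre duodenal ISCs (SD, n = 3) and 31.8 ± 4.67 CPM in WT ileal ISCs (SD, n = 2, edgeR adjusted p = 0.000656).

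Several of the 9 genes are also active in neurons or the pancreas. The neuron and glia markers summed to 8.72 to 13.8 CPM in Sec-Cre organoids, 11.5 to 11.7 CPM in ISC-Cre organoids, against 15.4 to 20.8 CPM in WT organoids. In sorted cells they summed to 4.91 to 6.05 CPM in Sec-Cre ileal and 5.78 to 7.83 CPM in ISC-Cre duodenal ISCs, against 9.22 to 9.89 CPM in WT ileal ISCs. The pancreas panel stayed at or below 7.02 CPM in every library, with Ins1, Ins2 and Ptf1a at 0. Its 1 gene tested in organoids, Ctrb1, fell in both comparisons with WT. Ctrb1 averaged 0.0956 ± 0.135 CPM in Sec-Cre organoids, against 4.89 ± 3.01 CPM in WT organoids (SD, n = 2 each). It had no read in ISC-Cre organoids, at least 75.8-fold lower by the floor of 3 counts. Markers of other gut cells also fell in Sec-Cre organoids, where 5 of the 9 genes fell: 8 of 8 enterocyte, 6 of 7 goblet, 4 of 6 Paneth and 4 of 5 tuft markers tested fell, and 1 Paneth marker rose. In ISC-Cre organoids 8 of 8 enterocyte, 6 of 7 goblet, 2 of 6 Paneth and 4 of 5 tuft markers fell, and 1 Paneth (Mmp7) and 1 tuft marker (Avil) rose. Over all genes, 16.3% were lower and 16.7% higher in Sec-Cre organoids, and 18.5% and 19.3% in ISC-Cre organoids. Immune and stromal markers summed to 306 to 631 CPM in Sec-Cre organoids, 599 to 727 CPM in ISC-Cre organoids, against 21.1 to 21.4 CPM in WT organoids, and the 3 that rose in Sec-Cre organoids were Vim, Cdh5 and Cd14. Vim, a filament protein of mesenchymal and other cells, carried most of that sum, with 419 ± 218 CPM in Sec-Cre organoids and 607 ± 112 CPM in ISC-Cre organoids, against 10.8 ± 1.24 CPM in WT organoids (SD, n = 2 each). Ptprc, which marks all white blood cells, averaged 0.194 ± 0.158 CPM in Sec-Cre organoids and 0.0801 ± 0.113 CPM in ISC-Cre organoids, against 0.807 ± 0.348 CPM in WT organoids (SD, n = 2 each), and did not pass in either comparison. The part of the cells these lists mark in the results was not tested.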

How the data were processed

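RNA-seq of 13 libraries was deposited as raw read counts per gene, whole numbers in the layout STAR writes, per the file headers and values: a column for both strands and a column for each strand. STAR, DESeq2 1.22.2 and mm10 are named per the submitters' processing notes; the STAR version and gene annotation are not given in the sources used here. Summary lines were left out of library sizes. The column for both strands was tested in edgeR 4.0.16 (R 4.3.3) with TMM scaling, filterByExpr (minimum count 10) and the quasi-likelihood test, with Benjamini-Hochberg adjustment over all genes and a threshold of 0.05. Organoids (6 libraries) and sorted ISCs (7) were fitted apart, and the comparisons across materials with all 13. Scripts were tested on simulated data.

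CPM levels use TMM sizes over all 13 libraries, and CPM per kb divides by the GENCODE exon length. For 0 reads, folds are bounds at 3 counts over the group. Totals and residual degrees of freedom (3, 4 and 7) limit the precision, and floors cover counting error only. The named genes were the 9 members, genes among their 3 nearest profiles, and members of the lists. The list members named were picked by hand and are not always those with the smallest adjusted p. Nkx2-2os and Pax6os1 were looked up as antisense neighbours. Members and lists were chosen with earlier results of these data known. No replicate pair was alike within counting noise (the lowest chi-square was 18.9 times its degrees of freedom). Alternatives were upper quartile scaling, DESeq2 size factors, library totals alone, no filter, DESeq2 1.42.0, limma 3.58.1 voom with library weights, a replicate block, only the groups compared, all 13 libraries and each library left out; summing the strand columns was added after seeing the data. The cause of each change was not tested.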

Additional observations from a re-analysis of the deposited data

Results flagged for a closer look

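One result differed between materials by its own test. The materials also differ in culture, cell mix, time point and the Lgr5DTR-GFP allele, which cannot be told apart. The log2 fold change of Chga in Sec-Cre Apc-null samples relative to WT was lower in organoids than in ileal ISCs (interaction -4.26 ± 0.93 SE, edgeR adjusted p = 0.00573, all 13 libraries). Chga was at 1.60 and 2.91 CPM in Sec-Cre organoids, against 96.1 and 109 CPM in WT organoids, and at 67.5 and 77.4 CPM in Sec-Cre ileal ISCs, against 136 and 194 CPM in WT ileal ISCs. The interaction lay between -4.74 and -3.41 over 22 alternatives and passed in each of them. Chga was not alone in this: the same interaction was called lower for 11 of 16 hormone and serotonin genes, 8 of 8 enterocyte, 5 of 7 goblet, 5 of 7 Paneth and 3 of 6 tuft markers tested, against 13% of all genes. Nts of the hormone list was called higher. Other lists did not lean that way. Of 24 granin and vesicle genes 3 were lower and 3 higher, and of 19 other factors 1 was lower and 4 higher. Of 12 fate and Notch genes 0 were lower and 4 higher, and of 8 stem cell markers 1 was lower and 2 higher. Of all genes, 13.4% were higher. The part of enterocytes, goblet, Paneth and tuft cells in the value for Chga was not tested.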

How the results depend on the processing

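Of 1284 log2 fold changes of the 9 genes under alternatives, 1158 kept their sign and side of the threshold, 53 lost a call, 34 gained one and 39 changed sign, none of those past the threshold. With 2 libraries in most groups and few reads for several factors, small differences were not detectable. The main calls were 2367 higher and 2318 lower in Sec-Cre against WT organoids, 2749 higher and 2628 lower in ISC-Cre against WT organoids, 0 higher and 6 lower in Sec-Cre against ISC-Cre organoids, 1403 higher and 1014 lower in Sec-Cre against WT ileal ISCs, 1494 higher and 1289 lower in duodenal against WT ileal ISCs, 3060 higher and 2890 lower in duodenal against Sec-Cre ileal ISCs, 301 higher and 288 lower in WT organoids against WT ileal ISCs, 2039 higher and 1974 lower in the interaction. On library totals alone the share of calls that were higher became 64.6%, against 50.5% with TMM, in Sec-Cre against WT organoids. It became 66.5% against 51.1% in ISC-Cre against WT organoids, 21.9% against 58% in Sec-Cre against WT ileal ISCs, 64.3% against 53.7% in duodenal against WT ileal ISCs, and 80% against 50.8% in the interaction, where the median of all genes shifted to 1 against 0.162. In Sec-Cre against ISC-Cre organoids the share was 27.8% with DESeq2 and 0% with edgeR.

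With a fit of all 13 libraries, calls became 1336 higher and 1141 lower in Sec-Cre against WT organoids, 1633 higher and 1364 lower in ISC-Cre against WT organoids, 1 lower in Sec-Cre against ISC-Cre organoids, 2236 higher and 2055 lower and 1 of the 9 genes lower in Sec-Cre against WT ileal ISCs, 2385 higher and 2041 lower in duodenal against WT ileal ISCs, 5 of the 9 genes lower in duodenal against Sec-Cre ileal ISCs. With fits of only the groups compared, calls became 11 lower in Sec-Cre against ISC-Cre organoids, 853 higher and 483 lower and 1 of the 9 genes lower in Sec-Cre against WT ileal ISCs, 2321 higher in duodenal against WT ileal ISCs, 473 higher and 553 lower in WT organoids against WT ileal ISCs. With library totals alone, calls became 299 higher and 1 of the 9 genes lower in Sec-Cre against WT ileal ISCs, 555 lower in duodenal against WT ileal ISCs, 967 lower and 1 of the 9 genes lower in duodenal against Sec-Cre ileal ISCs, 132 higher and 150 lower in WT organoids against WT ileal ISCs, 715 lower and 1 of the 9 genes higher in the interaction. With DESeq2, calls became 20 higher and 52 lower in Sec-Cre against ISC-Cre organoids, 2211 higher and 1579 lower in Sec-Cre against WT ileal ISCs, 5 of the 9 genes lower in duodenal against Sec-Cre ileal ISCs, 574 higher and 620 lower in WT organoids against WT ileal ISCs. With limma voom with library weights, calls became 12 lower in Sec-Cre against ISC-Cre organoids, 3987 higher and 3388 lower in duodenal against WT ileal ISCs, 720 higher and 689 lower in WT organoids against WT ileal ISCs. With no filter on low counts, calls became 2 higher and 22 lower in Sec-Cre against ISC-Cre organoids. With the replicate block, calls became 856 higher and 815 lower in duodenal against WT ileal ISCs. Leaving out each library in turn gave 1387 to 2668 higher, 1221 to 2433 lower and 1 to 6 of the 9 genes lower in Sec-Cre against WT organoids, and 1622 to 2866 higher, 1572 to 2676 lower and 3 to 7 of the 9 genes lower in ISC-Cre against WT organoids. It gave 0 to 2 higher, 0 to 9 lower in Sec-Cre against ISC-Cre organoids, and 99 to 1735 higher, 54 to 1510 lower and 0 to 3 of the 9 genes lower in Sec-Cre against WT ileal ISCs. It gave 466 to 2097 higher, 471 to 1865 lower and 4 to 8 of the 9 genes lower in duodenal against WT ileal ISCs, and 2031 to 3126 higher, 2060 to 2783 lower and 3 to 4 of the 9 genes lower in duodenal against Sec-Cre ileal ISCs. It gave 69 to 490 higher, 65 to 523 lower in WT organoids against WT ileal ISCs, and 1286 to 2549 higher, 1227 to 2522 lower and 1 to 2 of the 9 genes lower in the interaction.

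In ISC-Cre against WT organoids, sign changes touched Isl1 at -0.318 to 1.071 over libraries left out. In Sec-Cre against ISC-Cre organoids, sign changes touched Neurog3 at -0.456 to 0.9055 over libraries left out, Insm1 at -0.001147 (replicate block), -0.5738 to 0.7905 over libraries left out, Pax6 at -1.364 to 1.712 over libraries left out, Isl1 at -0.09129 to 0.8904 over libraries left out, Nkx2-2 at -0.2733 (strand sum), Chga at 0.1248 (voom), -1.462 to 2.023 over libraries left out. In Sec-Cre against WT ileal ISCs, sign changes touched Nkx2-2 at -1.503 to 0.3953 over libraries left out. In duodenal against Sec-Cre ileal ISCs, sign changes touched Insm1 at 0.001039 (all 13), 0.0289 (DESeq2), 0.9618 (totals), 0.3215 (voom), 0.01062 (no filter), 0.02651 (replicate block), 0.02643 (strand sum), 0.05675 (upper quartile), -0.4231 to 0.3622 over libraries left out, Pax6 at -0.1585 (replicate block), -0.5495 to 0.6744 over libraries left out, Isl1 at -3.503 to 0.3021 over libraries left out. In WT organoids against WT ileal ISCs, sign changes touched Neurog3 at -0.2626 to 0.4434 over libraries left out, Neurod1 at -1.002 to 0.04046 over libraries left out, Isl1 at -1.337 to 0.06788 over libraries left out, Nkx2-2 at 0.01225 (voom), 0.008626 (replicate block), -0.7025 to 0.4559 over libraries left out. In the interaction, sign changes touched Neurog3 at 0.5914 (totals), -1.001 to 0.3541 over libraries left out. The labels do not say whether a replicate number pairs libraries across groups. Deviations of libraries with the same number and material correlated at -0.0785 to 0.0666, which cannot decide whether they were paired. With the replicate block, 5 of the 9 genes were called lower in ISC-Cre against WT organoids (without Insm1, adjusted p = 0.0757, and Pax4, 0.094), 4 in duodenal against WT ileal ISCs (without Neurog3, 0.0777, and Isl1, 0.148) and 2 in duodenal against Sec-Cre ileal ISCs (without Fev, 0.065), and other counts of the 9 did not move.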

Other observations

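The strand columns hold more about Nkx2-2 than the column for both strands. Summed over 13 libraries, Nkx2-2 had 522 reads in the column for both strands and 305 and 448 in the first and second strand columns, 231 more. Its exons overlap those of the antisense gene Nkx2-2os by 278 bases, and Nkx2-2os had no read in the column for both strands. In the strand-specific duodenal libraries all 100 reads of Nkx2-2 lay in the second strand column. Neurog3, whose exons overlap Fam241b on the opposite strand by 273 bases, had 30 such extra reads, Pax6 had 2 and the other 6 genes had none. Over the 9 genes, 98.8% of strand-assigned reads lay in the second strand column in ISC-Cre duodenal ISCs, and 48.5% to 52.5% in the other 5 groups, where the strands of a gene and its antisense partner cannot be told apart.

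Neurod1 reads per Neurog3 read were 0.644 and 0.401 in Sec-Cre organoids and 0.446 and 0.391 in ISC-Cre organoids, against 0.919 and 1.16 in WT organoids. In sorted ISCs they were 0.733 and 1.41 in Sec-Cre ileal cells and 0.545, 0.37 and 4.67 in ISC-Cre duodenal cells, against 1.39 and 1.70 in WT ileal cells. The value of 4.67 comes from duodenal replicate 3, with 14 Neurod1 reads and 3 Neurog3 reads.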
